A study of Mus musculus with 10 samples.

Results

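The 9 genes described here carry the message for MHC class I antigen presentation in libraries labelled as mouse cortical endothelial cells (ECs), and they were taken by symbol from the 21612 genes of the deposited table. They are the classical heavy chains H2-K1 and H2-D1, the light chain B2m, the peptide transporter subunits Tap1 and Tap2, the loading chaperone Tapbp (tapasin), the immunoproteasome subunits Psmb8 and Psmb9, and the class I transactivator Nlrc5. MHC class I is a surface complex that shows peptides from inside a cell to CD8+ T cells. Proteasomes cut the peptides, the TAP transporter carries them into the endoplasmic reticulum (ER), and tapasin with other chaperones loads them onto a heavy chain that has joined β2-microglobulin. Interferons raise many of these genes together, through IRF1 and through NLRC5, which acts at a conserved promoter element shared by class I genes. Brain ECs are known to carry MHC class I at their surface, facing T cells in the blood.

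The study asked which genes differ between ECs of the forming and of the mature blood-brain barrier, and what Wnt3a or MS-275 does to adult ECs. The 10 messenger RNA libraries comprised 3 of E13.5 embryos, 3 of untreated adults (adult control), 2 of adults given Wnt3a and 2 of adults given MS-275. Wnt3a activates β-catenin signalling, and MS-275, also named entinostat, blocks histone deacetylases of class I. Every group was wild type, and the methods name the C57BL/6J strain, whose class I genes are of the b haplotype. Adult ECs came from male mice a few months old, an age that the methods and the results of the paper give differently. Cortices were pooled after the meninges were removed, and the methods count the pooled ECs of a litter as a replicate. The cells of all 4 groups grew on collagen in EC medium and were used at the second passage, which makes them a culture model of both ages. Treated cells were adult ECs given Wnt3a (200 nM by the labels, while the methods give a mass per volume) or 10 µM MS-275, and the labels call the controls only control.

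Depth ran from 21171509 to 31810932 reads on genes, and values are normalised counts (gene counts divided by a size factor per library). The label of the E13.5 libraries did not match their markers. The 15 endothelial markers summed to between 1955 and 2695 at E13.5, against 254159 to 325893 in adult control, 191847 to 249245 with Wnt3a and 28156 to 37512 with MS-275. Neural markers summed to between 39173 and 49953 at E13.5, and to between 1830 and 4838 in adult control, where 8 of the 15 were at 0. A mean of 10 or more was reached by 14 of the 15 at E13.5 and by only 1 in adult control. Mural and fibroblast markers went from 35969 to 64972 at E13.5 and from 239 to 346 in adult control. In a bulk library, fewer cells of a type and less RNA per cell cannot be told apart.

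Adult libraries also fell into 2 sets that no label names, found from the similarity of whole libraries after the data were seen. Set 1 held adult control 1, adult control 2, Wnt3a 1 and MS-275 1. Set 2 held adult control 3, Wnt3a 2 and MS-275 2. Adult control 3 correlated at r = 0.992 with Wnt3a 2 and at 0.952 and 0.945 with the other controls. The place of the MS-275 libraries is less clear, since MS-275 2 correlated at 0.833 and 0.830 with adult control 3 and Wnt3a 2 and at 0.827 with Wnt3a 1, and results by set that involve MS-275 rest on it. No pair of libraries agreed within sampling noise, the closest being E13.5 2 and E13.5 3, so all 10 were kept. Results that rest on adult control 3 or Wnt3a 2 are given with and without them.

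Of the 9 genes, 7 lie in the MHC region of chromosome 17 in the GRCm38 (mm10) build, which is also the build of the files. H2-K1 spans chr17:33996017-34000347 on the minus strand and H2-D1 spans chr17:35262730-35267499 on the plus strand, on either side of the processing genes. Between them, Psmb9 (chr17:34181987-34187764, minus strand), Tap1 (chr17:34187553-34197225, plus strand), Psmb8 (chr17:34197721-34201454, plus strand) and Tap2 (chr17:34203527-34216321, plus strand) form 1 cluster. Psmb9 and Tap1 overlap by 212 bases on opposite strands, and Tap1 and Psmb8 are 495 bases apart. The sources used here do not say if reads were counted by strand, so reads in the overlap cannot be assigned between Psmb9 and Tap1. Tapbp lies at chr17:33915899-33929292, B2m at chr2:122147686-122153083 and Nlrc5 at chr8:94434356-94527272, each on the plus strand.

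Promoter windows are shown because the heavy chain promoters are near copies of each other while the levels of H2-K1 and H2-D1 did not go together, and because Tap1 and Psmb9 are read from opposite strands of nearly the same stretch. The windows are from RefSeq (GRCm38.p6) and run from 250 bases before to 50 after a start site. Of the 9 genes, 7 matched an entry, and Tap2 and Nlrc5 did not. Capitals mark matches on either strand to GGGGATTCCCC (an NF-κB site), TTTCNNTTTC (the repeat of the interferon-stimulated response element), TTTCNNTTC (a shorter form of it, which does not match the full repeat), TGACG (the X2 part of the class I promoter element, a CREB/ATF core) and CCAAT or its reverse complement ATTGG (the Y part, an NF-Y site). The motifs were chosen after the sequences were read, and the letters of GGGGATTCCCC and of TTTCNNTTTC were read from the H2-K1 and B2m windows themselves.
H2-K1, chr17:34000298-34000597, minus strand: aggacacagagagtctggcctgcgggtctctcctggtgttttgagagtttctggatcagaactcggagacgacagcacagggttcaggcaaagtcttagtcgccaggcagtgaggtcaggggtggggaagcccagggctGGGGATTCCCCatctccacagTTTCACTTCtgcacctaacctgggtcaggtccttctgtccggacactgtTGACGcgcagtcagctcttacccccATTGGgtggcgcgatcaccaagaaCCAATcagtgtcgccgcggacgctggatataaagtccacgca
H2-D1, chr17:35262844-35263143, plus strand: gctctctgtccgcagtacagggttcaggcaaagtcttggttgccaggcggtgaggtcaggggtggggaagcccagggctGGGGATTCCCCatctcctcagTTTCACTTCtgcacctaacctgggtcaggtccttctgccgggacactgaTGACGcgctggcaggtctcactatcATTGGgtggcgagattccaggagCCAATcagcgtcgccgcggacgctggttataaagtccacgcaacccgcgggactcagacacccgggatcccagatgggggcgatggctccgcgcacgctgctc
B2m, chr2:122147437-122147736, plus strand: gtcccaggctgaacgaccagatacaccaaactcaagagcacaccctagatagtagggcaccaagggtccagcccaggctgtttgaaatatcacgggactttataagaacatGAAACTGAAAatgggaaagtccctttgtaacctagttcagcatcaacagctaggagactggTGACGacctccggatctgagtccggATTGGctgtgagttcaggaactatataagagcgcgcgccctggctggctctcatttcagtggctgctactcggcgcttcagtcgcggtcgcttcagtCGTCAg
Tap1, chr17:34187306-34187605, plus strand: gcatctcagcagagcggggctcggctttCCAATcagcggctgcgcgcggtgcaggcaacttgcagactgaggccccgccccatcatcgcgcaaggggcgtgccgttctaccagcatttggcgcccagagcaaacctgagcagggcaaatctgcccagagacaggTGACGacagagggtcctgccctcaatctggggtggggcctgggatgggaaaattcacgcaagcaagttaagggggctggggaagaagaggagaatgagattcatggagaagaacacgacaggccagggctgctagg

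The windows of H2-K1 and H2-D1 were identical at 211 of 239 aligned bases (88.3%). Both held GGGGATTCCCC, which was in 10 of all 32851 RefSeq promoter windows (0.0304%), followed by TTTCNNTTC, which was in 7.52% of them. B2m held TTTCNNTTTC on the other strand, and this longer form was in 3.44% of windows. H2-K1, H2-D1 and B2m each held TGACG with ATTGG after 20 further bases, the spacing of the X2 and Y parts. A TGACG followed by ATTGG after 15 to 30 bases was found in 189 windows (0.575%). TGACG alone was in 20.8% and CCAAT or ATTGG in 37.4% of windows, so the separate matches in the Tap1 and Psmb9 windows, which share 275 bases, are common letters. A further motif that was searched and is not marked, TTCNNNGAA, matched in the Psmb8 window and in no other window of these genes. It was in 8.3% of all windows. A match is a description of letters and not of binding.

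H2-D1, a classical heavy chain that presents peptides to CD8+ T cells, was far higher in adult than in E13.5 libraries. It was at 749, 649 and 600.2 in E13.5 1, 2 and 3, at 14757, 16238 and 6271 in adult control 1, 2 and 3, at 12681 and 7488 in Wnt3a 1 and 2, and at 17256 and 19569 in MS-275 1 and 2. Every adult library was above every E13.5 library, and the lowest adult values were those of adult control 3 and Wnt3a 2. Adult control was 18.7-fold above E13.5 by the means (log2 difference 4.11 ± 0.35 (SE), adjusted p = 1.62e-05).

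H2-K1, the other classical heavy chain, did not follow H2-D1. It was at 886, 1211 and 1175 in the E13.5 libraries, at 730.4, 863 and 26.6 in adult control 1, 2 and 3, at 938 and 28.7 in Wnt3a 1 and 2, and at 5519 and 2764 in MS-275 1 and 2. Adult control 3 and Wnt3a 2 were far below all other libraries, and both MS-275 libraries were above all others. Adult control 3 and Wnt3a 2 had 27 and 24 reads of H2-K1, and the 95% interval of the difference between adult control and E13.5, -5.43 to 1.31 on the log2 scale, included 0 (log2 difference -2.06, adjusted p = 0.284).

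The light chain B2m, the partner of the classical heavy chains, was at 3525, 2534 and 2361 at E13.5 and at 5155, 4917 and 7737 in adult control. Wnt3a 1 and 2 were at 7789 and 8047, and MS-275 1 and 2 were at 9364 and 11194. The 4 groups did not overlap in any pair of neighbours, in the order E13.5, adult control, Wnt3a and MS-275, although the step from control to Wnt3a was not called (adjusted p = 0.752). Adult control was 2.12-fold above E13.5 (log2 difference 1.07 ± 0.22, adjusted p = 0.00335).

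**Figure D1:**
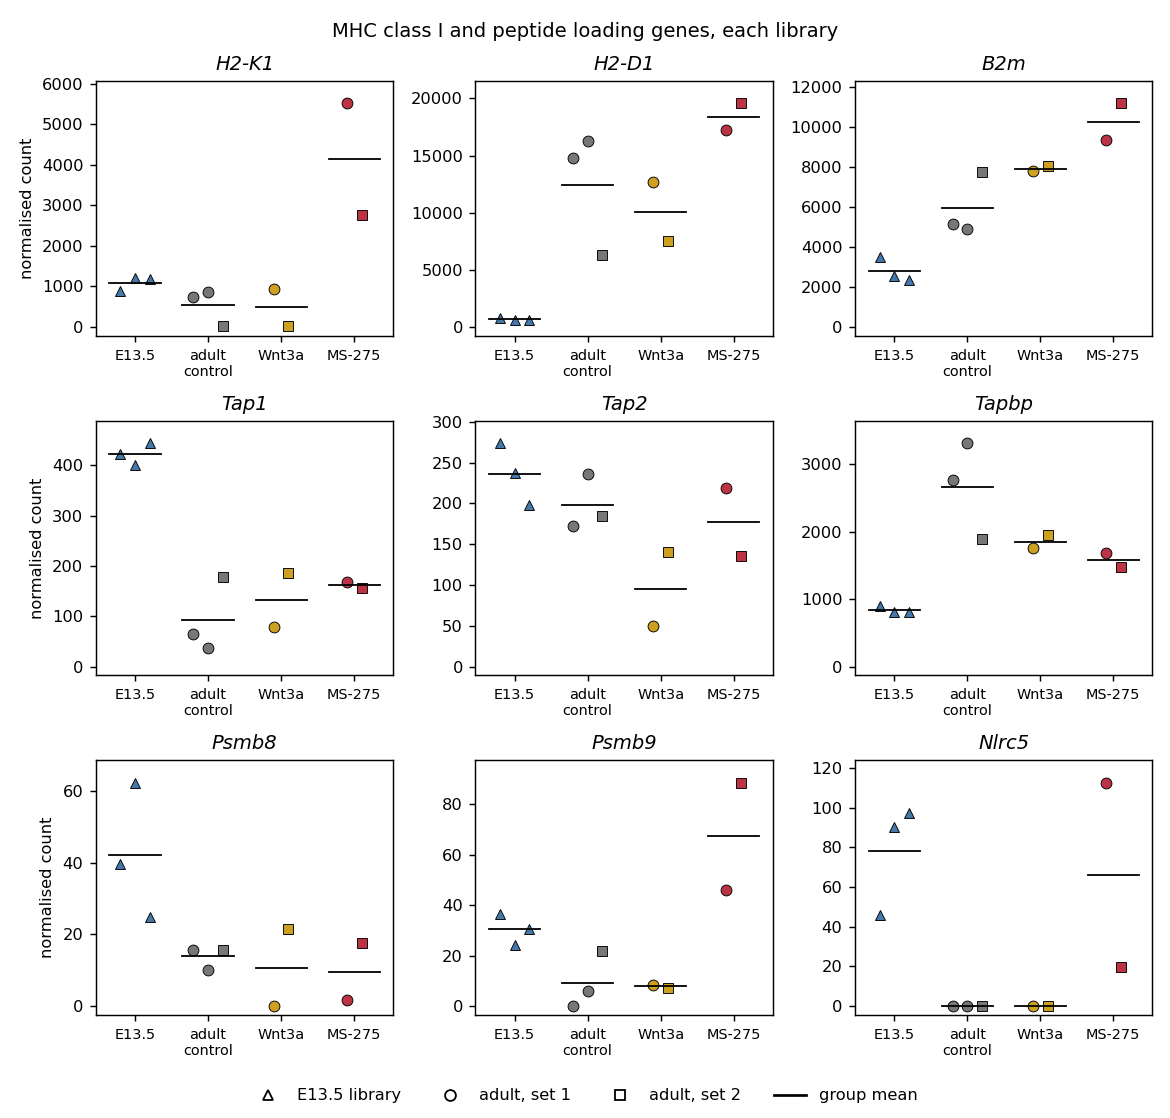
Normalised counts (linear axis from 0, scaled per gene) of the 9 genes in every library, by group, with the group mean as a line; triangles are E13.5 libraries, circles adult libraries of set 1 and squares adult libraries of set 2. H2-D1 is at 749 or less in all E13.5 libraries and at 6271 or more in all adult ones, and Nlrc5 is at 0 in the 5 control and Wnt3a libraries.

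Set per kilobase of all exons annotated to a gene, B2m had the highest mean of the 9 in every group, from 3264 normalised counts per kb at E13.5 to 11952 with MS-275. H2-K1 (371 per kb) stood above H2-D1 (258 per kb) at E13.5. In adult control H2-D1 was at 4816 per kb and H2-K1 at 184 per kb. With MS-275 the 2 heavy chains stood at 7139 and 1410 per kb. The transporter subunits were far lower, Tap1 at 77.3 per kb and Tap2 at 62.5 per kb at E13.5, and Psmb8, Psmb9 and Nlrc5 were under 20 per kb in every group. All annotated exons together came to 3381 bases for Psmb8, 3660 for Psmb9 and 5476 for Tap1. Their protein-coding transcripts held only 1669, 1679 and 2983 distinct stretches of 36 bases, so per kb of such a transcript these genes would stand higher.

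Within a library, H2-K1 as a share of H2-D1 needs no scaling between libraries. The share of normalised counts was 118%, 187% and 196% at E13.5. It was 4.95%, 5.32% and 0.425% in adult control 1, 2 and 3, and 7.39% and 0.383% in Wnt3a 1 and 2. MS-275 1 and 2 were at 32.0% and 14.1%. H2-K1 thus outnumbered H2-D1 in all E13.5 libraries and in none of the 7 adult ones, and the MS-275 share was above that of every control and Wnt3a library. Both genes have sequence in common with other genes. Of the stretches of 75 bases in their transcripts, 1.12% of H2-K1 and 6.15% of H2-D1 also occur in another gene, mostly other class I heavy chains, and 15.0% and 23.1% of stretches of 36 bases do, so their counts carry that uncertainty. B2m, Psmb8, Psmb9 and Nlrc5 shared none at either length.

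Tap1, the first subunit of the peptide transporter, was higher at E13.5 than in any adult library. The E13.5 libraries were at 424, 401 and 445, adult control 1, 2 and 3 at 64.2, 36.6 and 178, Wnt3a 1 and 2 at 77.8 and 186, and MS-275 1 and 2 at 169 and 155. Adult control 3 and Wnt3a 2, where H2-K1 was lowest, were the highest of the control and Wnt3a libraries for Tap1. Tap1 fell by 2.48 ± 0.55 on the log2 scale from E13.5 to adult control (4.55-fold by the means, adjusted p = 0.0054).

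Its partner Tap2 was at 274, 238 and 198 at E13.5, at 173, 236 and 184 in adult control, at 50.01 and 141 with Wnt3a and at 218 and 136 with MS-275. Both Wnt3a libraries were below all E13.5 and control libraries, and the other pairs of groups overlapped. The log2 difference of adult control from E13.5 was -0.26, with an interval of -1.18 to 0.66 (adjusted p = 0.63), so Tap1 and Tap2 did not keep the same ratio across ages.

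Tapbp, which bridges the transporter and the empty heavy chain, was at 893, 812 and 802 at E13.5 and at 2765, 3312 and 1882 in adult control. Wnt3a 1 and 2 were at 1759 and 1945, and MS-275 1 and 2 at 1677 and 1470.0. All adult libraries stood above all E13.5 libraries, and adult control 1 and 2 stood above the rest. Tapbp was 3.18-fold higher in adult control than at E13.5 (log2 difference 1.63 ± 0.21, adjusted p = 0.000182).

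Psmb8 and Psmb9 replace the constitutive subunits Psmb5 and Psmb6 in the immunoproteasome, and both were rare messages. Psmb8 was at 39.7, 62.4 and 24.8 at E13.5, at 15.6, 10.17 and 15.8 in adult control, at 0 and 21.5 with Wnt3a and at 1.71 and 17.5 with MS-275. Psmb9 was at 36.6, 24.3 and 30.5 at E13.5, at 0, 6.10 and 21.7 in adult control, at 8.34 and 7.16 with Wnt3a and at 46.1 and 88.5 with MS-275. E13.5 and adult control did not overlap for either gene, and both MS-275 libraries were the highest of all for Psmb9. Neither passed the test between ages (log2 difference -1.47, adjusted p = 0.305, for Psmb8 and -2.51, adjusted p = 0.057, for Psmb9), and Psmb9 was called lower in adult control (-3.54, adjusted p = 0.00879) without adult control 3 and Wnt3a 2.

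Nlrc5 was read only at E13.5 and with MS-275. It was at 46.1, 90.2 and 97.3 in the E13.5 libraries, at 0 in all 3 adult control and both Wnt3a libraries, and at 113 and 19.7 in MS-275 1 and 2. A total of 3 reads over the adult control libraries would have been a normalised count of 0.952. Against that floor, which covers counting error only, Nlrc5 was at least 81.8-fold lower in adult control than the E13.5 mean (adjusted p = 3.57e-05). Nlrc5 reached the level needed for testing only in libraries of E13.5 and MS-275, the groups where it was high. Groups with every library at 0 added no spread, so its adjusted p-values, here and below, are a description and not independent support.

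Between adult control and E13.5, 3 of the 9 genes were called higher (H2-D1, B2m and Tapbp) and 2 lower (Tap1 and Nlrc5). A call needed an adjusted p under 0.05 in limma and an absolute log2 difference above 0.2. Of all 15211 genes tested, 49.1% were called, 17.9% higher and 31.2% lower, so a share of 5 in 9 is near the background. The groups did not overlap for 8 of the 9 genes, against 62.5% of all genes. These 5 genes were called under each of the 24 alternatives that could be run, without adult control 3 and Wnt3a 2 among them. The endothelial, neural and mural markers given above moved with this comparison as well, and their part in it was not tested.

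The leukocyte and microglia list, which holds other cells known for high MHC class I, summed to between 1411 and 2447 at E13.5 and to between 7721 and 15070 in adult control. In adult control Cd68, a lysosomal protein, held 7456 to 14834 of this sum, while P2ry12, Itgam, C1qa, C1qb, C1qc and Adgre1 were at 0 in all 3 libraries. Ptprc (CD45), the pan-leukocyte marker, was at 23.6 ± 9.24 (SD, n = 3) at E13.5 and at 0.657 ± 1.14 (n = 3) in adult control. Of the 11 tested members 1 was higher in adult control and 7 were lower (72.7% called, beside 49.1% of all genes). Their part in the class I genes was not tested.

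**Figure D2:**
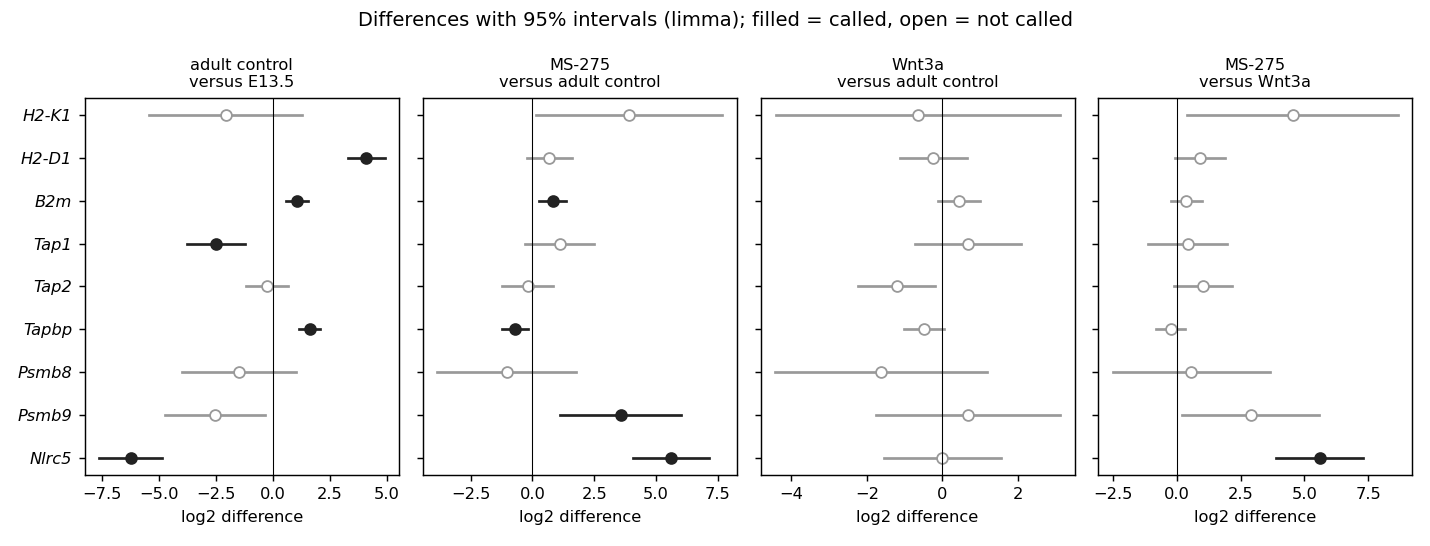
Log2 differences of the 9 genes in the 4 comparisons (first group minus second), with 95% intervals from limma; filled points passed the test and open points did not. Intervals of H2-K1, Psmb8 and Psmb9 are the widest, and no point is filled for Wnt3a against adult control.

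Other genes of the pathway are given from lists chosen with earlier results of these data known, by their counts and their median beside that of all genes. Between adult control and E13.5 the median log2 difference of all genes was -0.20, and 49.1% of them were called (17.9% higher, 31.2% lower). Of 15 tested class I heavy chains other than H2-K1 and H2-D1, 7 were higher and none lower in adult control, with a median of 1.31. The share called, 46.7%, was near that of all genes. H2-T23 rose from 26.3 to 900.5, H2-Q1 from 10.8 to 174, H2-M3, which presents formylated peptides, from 20.1 to 121, and Mr1, which presents vitamin B metabolites to T cells, from 53.3 to 776. H2-T22 (3.32-fold), H2-T24 and Cd1d1 rose too, the last called under 16 of 24 alternatives. H2-T22 shares 24.6% of its stretches of 75 bases with other genes and H2-T23 13.1%, so part of their counts may belong to relatives.

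Of 11 tested genes for folding and loading in the ER, 4 were higher in adult control and none lower, with a median of 0.36 (36.4% called, beside 49.1% of all genes). They were Tapbpl, a second peptide editor (2.85-fold, adjusted p = 0.00767), Uggt1, which returns misfolded chains to the chaperones (1.39-fold), Ganab and Bcap31. Among 6 genes of the immunoproteasome and its PA28 and PA200 activators, Psme1 (1.45-fold) and Pomp, the assembly factor (2.03-fold), were higher and Psme4 (PA200) was lower, from 4329 to 2535. Psmb10, the remaining immunoproteasome subunit, was at 132 ± 16.8 in adult control and 229.8 ± 28.2 at E13.5 (n = 3 each, adjusted p = 0.0721). Of the 14 constitutive 20S subunits, Psma1, Psmb1 and Psmb3 were higher, and Psmb5, Psmb6 and Psmb7, which the immune subunits replace, were not called (adjusted p = 0.634, 0.764 and 0.365). The shares called were 50% of the 6 immunoproteasome and activator genes and 21.4% of the 14.

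Regulators of class I genes did not move one way. Of 18 tested, 4 were higher in adult control, with Nfkb1, Nfya and Kat2a among them, and Irf2, Rfxank and Nfyc were lower, with a median of 0.03. The share called was 38.9%, beside 49.1% of all genes. Rfxank was called under 11 and Nfyc under 9 of 24 alternatives. Nfkb1 went from 1408 ± 26.4 to 2351 ± 33.0 (1.67-fold, adjusted p = 0.00583). Irf1 (274 and 365, adjusted p = 0.271), the RFX subunit Rfx5 (487 and 452, adjusted p = 0.742) and Ciita, the class II relative of Nlrc5 (14.0 and 6.37, adjusted p = 0.0699), were not called.

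Of 22 tested genes downstream of interferons, 11 were higher and 3 lower in adult control, with a median of 1.69 (63.6% called, beside 49.1% of all genes). Xaf1 went from 12.3 to 1747, the RNA sensor Ddx58 from 385 to 3972, and Oas1a from 4.18 to 316. The 3 that fell were Cxcl10, a T cell attractant (538 to 7.12), Ifit2 and Gbp5. Ifit2 was at 71.1, 52.9 and 610.3 in adult control 1, 2 and 3, the last within the E13.5 range, and it was called under 11 of 24 alternatives. Of 12 receptor and signalling genes, 6 were higher, including Stat2 (5.32-fold) and Irf9 (2.74-fold), and Ifngr1, a chain of the interferon-γ receptor, was lower (1237 to 495). The share of the 12 called was 58.3%. Ifng, Ifnb1 and Ifna4 had no read in any E13.5 or adult control library, and Ifne, an epithelial type I interferon, was at 0 at E13.5 and at 54.4 ± 5.36 in adult control.

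The comparisons with E13.5, MS-275 and Wnt3a all use the same adult control libraries, so each is given by its own values. With MS-275, 3 of the 9 genes rose against adult control (B2m, Psmb9 and Nlrc5) and Tapbp fell, where 39.1% of all genes were called (21.8% higher, 17.4% lower). Nlrc5 went from 0 in all 3 controls to 113 and 19.7 (adjusted p = 0.000517). Its MS-275 mean of 66.1 ± 65.7 (SD, n = 2) was at least 69.5-fold higher, and the fold from MS-275 2 alone would be smaller. Psmb9 went from a mean of 9.26 to 67.3 (7.26-fold, log2 difference 3.58 ± 1.08, adjusted p = 0.0282) and B2m from 5936 to 10279 (1.73-fold, 0.82 ± 0.25, adjusted p = 0.028). Tapbp fell by 0.72 ± 0.23 on the log2 scale (adjusted p = 0.0355). The treated and control libraries did not overlap for 6 of the 9 genes, against 57.3% of all genes.

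H2-K1 was 7.67-fold higher with MS-275 by the means, and the test did not pass (log2 difference 3.91 ± 1.66, interval 0.14 to 7.68, adjusted p = 0.0929). H2-D1 differed by 0.68 (interval -0.22 to 1.58, adjusted p = 0.204), with both MS-275 libraries above all controls. Tap1 (1.099, adjusted p = 0.192), Tap2 (-0.19, adjusted p = 0.78) and Psmb8 (-1.05, adjusted p = 0.534) overlapped with the controls. Over the alternatives, Nlrc5 was called in 25 of 25, B2m in 19, Psmb9 in 18 of 24, Tapbp in 16 and H2-K1 in 4 of 25.

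The spread of H2-K1 lay between the library sets. Among control and Wnt3a libraries, H2-K1 was 30.5-fold and H2-D1 2.12-fold higher in set 1 than in set 2, while Tap1 was 3.06-fold higher in set 2, with no overlap for any of the 3. Within set 1 MS-275 1 had 6.93 times the mean H2-K1 of adult control 1 and 2, and within set 2 MS-275 2 had 104 times that of adult control 3. The ratio for H2-D1 was 1.11 and 3.12, and that for B2m 1.86 and 1.45. Tap1 was at 3.35 times the control in set 1 and 0.87 times in set 2, so its direction was not the same in both.

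With the set as a term in the fit, an alternative added after the data were seen, H2-K1 (4.53, adjusted p = 0.00171) and H2-D1 (0.80, adjusted p = 0.046) were called higher beside B2m, Psmb9 and Nlrc5, and Tapbp stayed lower. Without adult control 3 and Wnt3a 2, H2-K1 (2.297, adjusted p = 0.00176) and Tap1 (1.72, adjusted p = 0.00448) were called and H2-D1 was not (0.25, adjusted p = 0.217). Without MS-275 1 or without MS-275 2, Nlrc5 was the only call of the 9, and it was at 4.37 and 6.83 on the log2 scale. Leaving out adult control 1 (Psmb9 and Nlrc5 called) or adult control 2 (Nlrc5 called) also lowered the number.

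**Figure D3:**
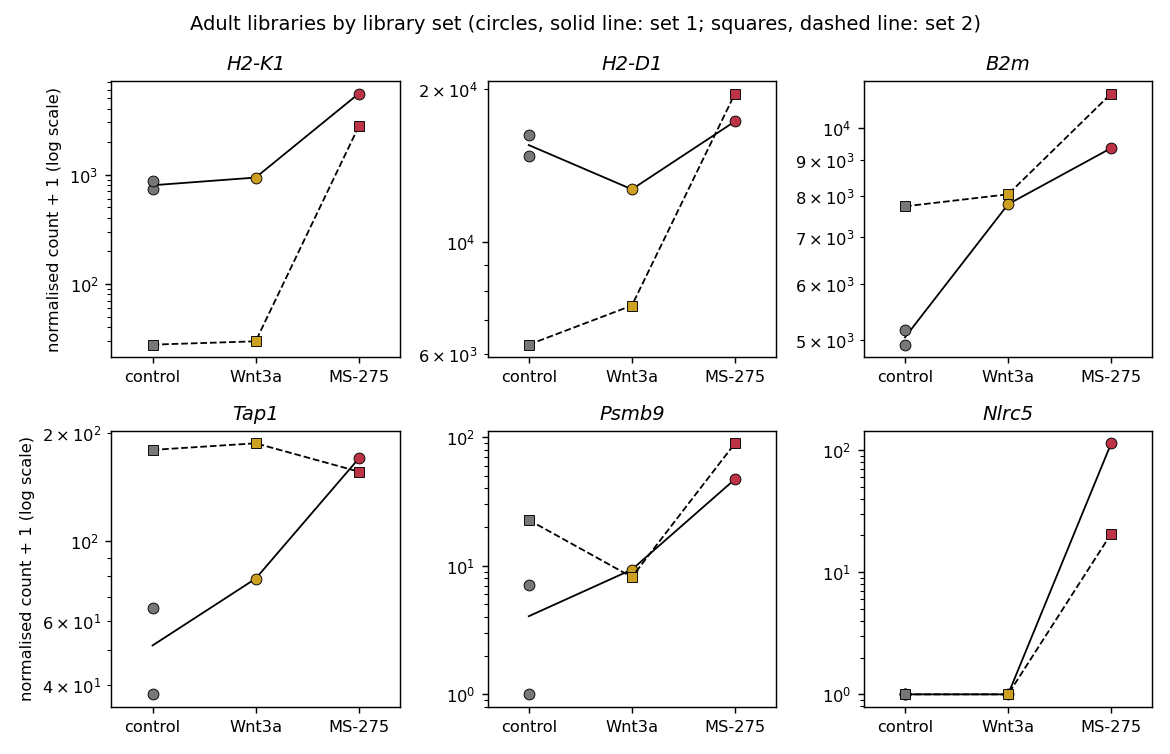
Normalised count + 1 (log axis, scaled per gene) of 6 genes in the 7 adult libraries, with a line through the means of each library set. In both sets H2-K1, H2-D1, B2m, Psmb9 and Nlrc5 end higher with MS-275 than in control, and the sets start 30.5-fold apart for H2-K1 over the control and Wnt3a libraries.

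Of the 15 endothelial markers, 13 were lower with MS-275 than in adult control and none was higher (86.7% called, beside 39.1% of all genes). Neural markers summed to between 2610 and 5378 and mural and fibroblast markers to between 615 and 724 in the MS-275 libraries, where the controls were at 1830 to 4838 and at 239 to 346. Of the 15 neural markers, 3 had a mean of 10 or more with MS-275 and 1 in adult control. The leukocyte and microglia list summed to between 3377 and 8619, against 7721 to 15070 in control. Cd68 held 3227 to 8335 of the MS-275 sum and was not called (adjusted p = 0.21), and 1 of the 11 tested members was called higher, Adgre1 (0 in control and 2.80 with MS-275), and none lower. The share called was 9.09%, beside 39.1% of all genes. P2ry12, C1qa and C1qc were at 0, while Itgam (0 and 3.41) and Cx3cr1 (0.578 and 3.65) were at a few normalised counts. Ptprc was at 8.77 ± 9.31 (SD, n = 2) and was not called (adjusted p = 0.0618). The part of these changes in the class I genes was not tested.

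Immunoproteasome subunits parted under MS-275. Psmb10, in contrast to Psmb9, fell from 132 ± 16.8 (n = 3) to 27.9 ± 6.90 (n = 2), 4.74-fold (adjusted p = 0.0019), and it was called under all 25 alternatives. Psmb9 as a share of its constitutive counterpart Psmb6 was 0%, 0.195% and 1.20% in adult control 1, 2 and 3 and 1.35% and 2.59% in MS-275 1 and 2. Psmb10 as a share of Psmb7 was 3.10%, 3.74% and 3.79% in control and 0.696% and 0.75% with MS-275, without overlap. Psmb8 as a share of Psmb5 was 0.577%, 0.356% and 1.52% in control and 0.128% and 2.52% with MS-275, which overlapped.

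The mean log2 ratio differed from control by 3.19 for Psmb9 to Psmb6 (exact two-sided permutation p = 0.2, adjusted 0.571 over 12 such tests), by -2.25 for Psmb10 to Psmb7 (exact p = 0.1, adjusted 0.4) and by 0.01 for Psmb8 to Psmb5 (exact p = 1). With 2 libraries against 3 the smallest p possible is 0.1, so no such ratio could pass. Between adult control and E13.5 the differences were -1.75 for Psmb8 to Psmb5, -2.42 for Psmb9 to Psmb6 and -0.99 for Psmb10 to Psmb7 (exact permutation p = 0.1, 0.3 and 0.1, with 0.1 again the smallest possible). Psmb5, Psmb6 and Psmb7 themselves were not called with MS-275 (2201 and 1015, 2705 and 3415, 3730.2 and 3841, adjusted p = 0.125, 0.289 and 0.931).

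**Figure D4:**
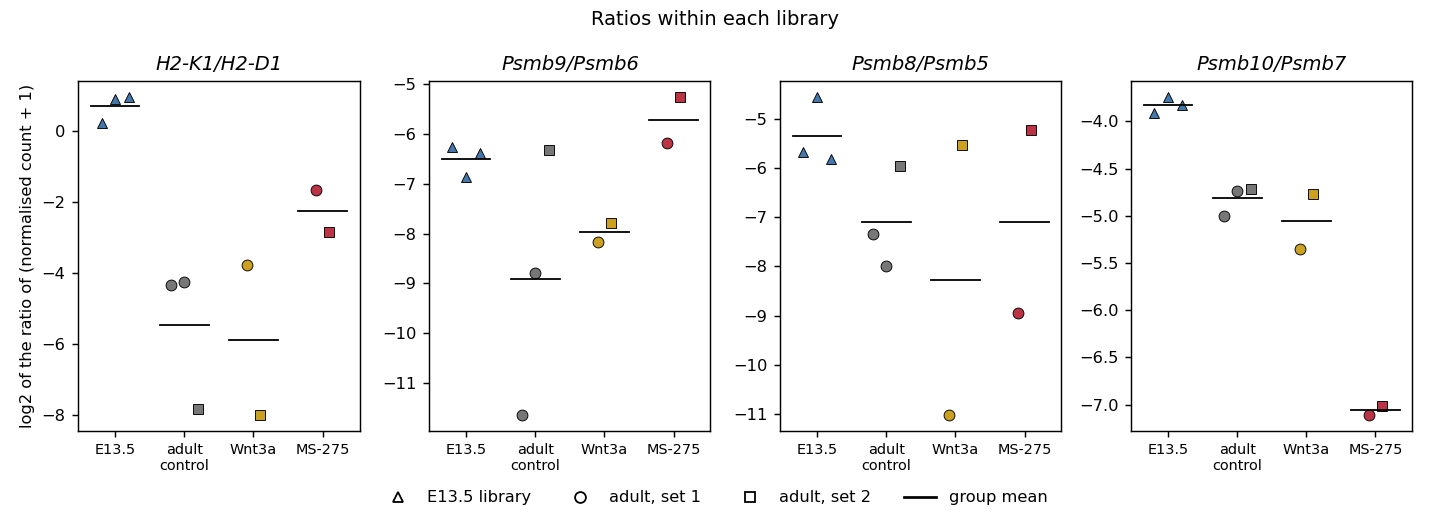
Log2 ratio of (normalised count + 1) of 4 gene pairs in each library, with the group mean as a line and the symbols for library sets as before. H2-K1 to H2-D1 is above 0 only at E13.5, and Psmb10 to Psmb7 is lowest in both MS-275 libraries.

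Other heavy chains were called lower or did not pass with MS-275. Of 15 tested, none was called higher and 5 were called lower (33.3%, beside 39.1% of all genes). The median of the 15 was 0.54, beside 0.15 for all genes. The groups did not overlap for 11 of the 15, against 57.3% of all genes, and some of these were higher in both MS-275 libraries without passing. Among them were H2-T22 (means 1143 in control and 1748 with MS-275), H2-M3 (121 and 203), H2-Q10 (16.8 and 39.3) and H2-Q2 (17.5 and 43.9). H2-T24 fell from 526 ± 298 to 22.4 ± 3.90 (adjusted p = 0.000895), Hfe, the iron regulator, from 282 to 55.8, Cd1d1, which presents lipids, from 189 to 52.8, and H2-M5 from 21.8 to 1.95. H2-T23 fell from 900.5 ± 643 to 91.7 ± 47.7 (adjusted p = 0.0363), with adult control 3 at 167 and MS-275 1 at 125, and it was called under 17 of 25 alternatives.

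Loading and folding genes of the ER were divided. The chaperones Calr (2.58-fold, adjusted p = 0.00163) and Hspa5 (1.79-fold), Uggt1 (1.93-fold) and the peptidase Lnpep (1.72-fold) rose, and Tapbpl fell from 278 to 63.5 (adjusted p = 0.00362), the same direction as Tapbp, its relative. Lnpep was called under 14 of 25 alternatives. The median of the 11 was 0.20, and 45.5% of them were called, beside 39.1% of all genes. Psme4 rose from 2535 to 9083 (adjusted p = 0.000238) and Psme1 (PA28α) fell from 1680.5 to 752 (adjusted p = 0.00209), and Psmb2 alone of the 14 constitutive subunits was called (1.61-fold higher). The shares called were 50% of the 6 immunoproteasome and activator genes and 7.14% of the 14.

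Of 18 regulators, 8 were lower and 2 higher with MS-275, with a median of -0.60 (55.6% called, beside 39.1% of all genes). Nfkb1 fell 5.25-fold, the acetyltransferases Kat2b 8.50-fold and Kat2a 3.23-fold, and Crebbp 2.36-fold. Nfyb, a subunit of NF-Y, was among those that rose (754 to 1847, adjusted p = 0.00338). Irf1 (365 and 674, adjusted p = 0.0905), Rfx5 (452 and 271, adjusted p = 0.056) and Ciita (6.37 and 9.61, adjusted p = 0.37) were not called.

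Interferon response genes moved both ways. Of 22 tested, Rsad2 (113 ± 59.1 to 3853 ± 4061) and Cxcl10 (7.12 ± 4.45 to 1333 ± 1784) rose, and Ddx58 (3972 to 758), Irgm1, Rtp4 and Xaf1 fell, with a median of 0.63. The share called was 27.3%, below the 39.1% of all genes. Cxcl10 was at 71.6 in MS-275 1 and 2595 in MS-275 2, its log2 difference went from 3.30 to 8.45 leaving out 1 library, and it was called under 21 of 25 alternatives. Xaf1 was called under 18 of 25. Of the 12 receptor and signalling genes, 4 rose, with Jak1, Ifnar1 and Ifngr1 (495 to 1066) among them, and Ifnar2 and Irf9 fell (50% called). Ifng was at 0.853 and Ifnb1 at 1.64 on average over the MS-275 libraries and both were at 0 in control, while Ifne was at 54.4 in control and 0.853 with MS-275.

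**Figure D5:**
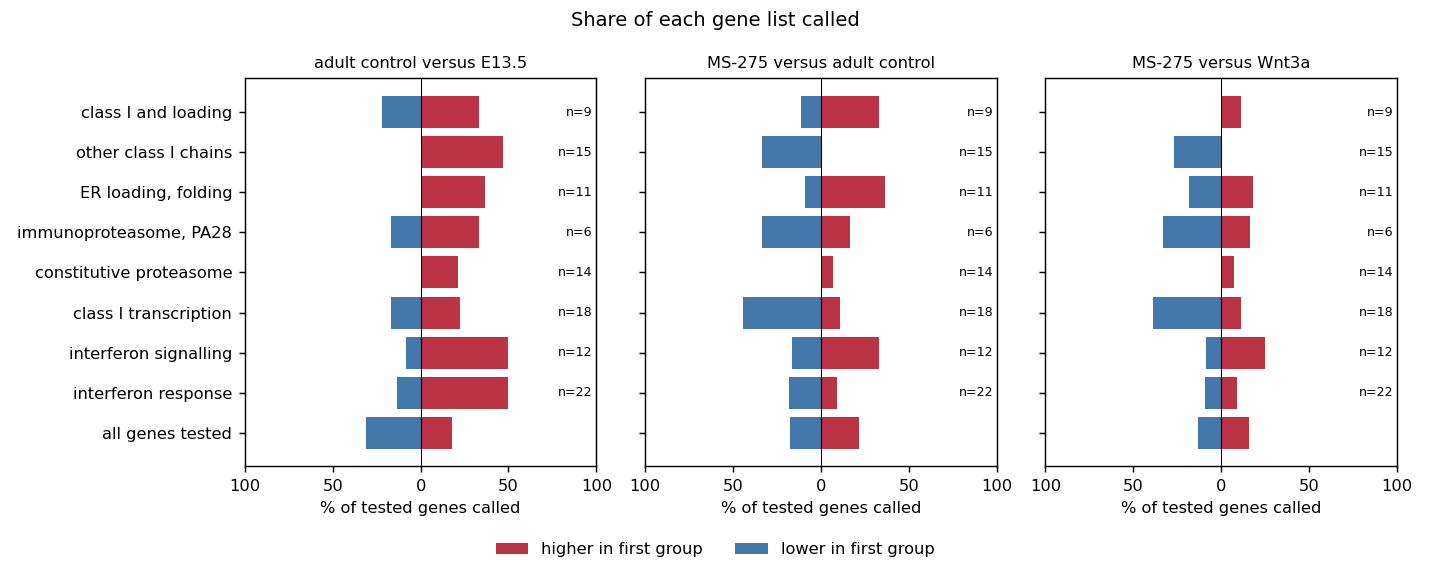
Percent of the tested genes of each list called higher (right) or lower (left) in the first group of 3 comparisons, with all genes tested in the bottom bar and the number tested as n. Of the other class I chains 7 of 15 are higher between adult control and E13.5, and 5 of 15 are lower between MS-275 and adult control.

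For Wnt3a no difference in the 9 genes was detectable with 2 libraries against 3. No gene of the 15211 was called against adult control (0%), with 916 at an unadjusted p under 0.05 in limma, and edgeR and DESeq2 on the recovered reads also called 0 (925 and 1166 unadjusted). Of the 9 genes, Tap2 alone had an unadjusted p under 0.05 (0.0262, adjusted 0.752), with both Wnt3a libraries below all controls and a mean of 95.4 ± 64.2 (n = 2) against 198 ± 33.6 (n = 3). B2m was the other gene without overlap, and 16% of all genes had none. The intervals of the log2 differences were -1.13 to 0.67 for H2-D1 and -0.11 to 1.00 for B2m, and for H2-K1 they reached from -4.41 to 3.13.

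Within the sets Tap2 in Wnt3a was at 0.245 times the control mean in set 1 and at 0.764 times in set 2, and B2m at 1.55 and 1.04 times. Without adult control 3 and Wnt3a 2, which leaves 1 Wnt3a library assumed to vary like the other groups, 719 genes were called and Tap2 was among them (-1.99, adjusted p = 0.0474). Nlrc5 had no read in either Wnt3a library. None of the partners Psmb10 (113 and 132), Psmb5, Psmb6, Psmb7, Irf1, Rfx5 and Ciita was called, their adjusted p lying between 0.79 and 1.

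MS-275 was also set against Wnt3a, a comparison that shares the MS-275 libraries with the one against control. Of the 9 genes only Nlrc5 was called, at least 34.3-fold higher by its MS-275 mean (adjusted p = 0.00131), where 29.3% of all genes were called (16.1% higher). The fold from MS-275 2 alone, at 19.7, would be smaller. H2-K1 (log2 difference 4.55, adjusted p = 0.0934), Psmb9 (2.89, adjusted p = 0.0987) and H2-D1 (0.92, adjusted p = 0.148) were higher in both MS-275 libraries than in both Wnt3a libraries without passing. In all, 6 of the 9 did not overlap, against 59.5% of all genes. With the set as a term, H2-K1 (adjusted p = 0.00335), H2-D1 (0.0435) and Psmb9 (0.0493) were called too.

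Of the other heavy chains, H2-T24, H2-M5, Cd1d1 and Hfe were called lower with MS-275 than with Wnt3a and none of 15 was called higher. The median log2 difference of the 15 was 0.93, beside 0.09 for all genes, and 26.7% were called, beside 29.3% of all genes. Hfe was called under 14 and Cd1d1 under 18 of 25 alternatives. In the ER, Calr (2.69-fold) and Uggt1 (1.85-fold) were higher and Tapbpl and Erap1, the trimming peptidase, lower. Psme4 was 2.64-fold and Psmb2 1.93-fold higher, while Psme1 and Psmb10 (113 to 27.9, adjusted p = 0.0078) were lower. Irf1 (279 and 674, adjusted p = 0.0376) was higher with MS-275 and was called under 16 of 25 alternatives, and Psmb5, Psmb6, Psmb7, Rfx5 and Ciita were not called (adjusted p between 0.136 and 0.862).

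As a description of pattern, the 5 genes most like Tap1 over the 10 libraries were Slc4a4 (Pearson r = 0.99), Zik1, Zmym1, Aldh5a1 and Otx1, with r of 0.97 or more among 11608 genes of mean 100 or above. The genes most like B2m were Dnajc10 (r = 0.99), Sarnp, Ccdc38, Setdb2 and Ggct. Over the 7 adult libraries, where the E13.5 step plays no part, they were Aldh1a7, Slc4a4, Ndufa5, Tma7 and Hacd4 for Tap1 and Scoc, Zfp267, Mpp5, Dpy19l4 and Ly75 for B2m. The points share groups and library sets. Among the 9 genes themselves, r of B2m with H2-D1 was 0.86 over the 10 libraries and 0.027 over the 7 adult ones. For B2m with Tapbp it was 0.57 and -0.97, for B2m with Tap1 -0.47 and 0.82, and for Tap1 with Tapbp -0.93 and -0.82. H2-K1 with B2m was at -0.13 and 0.16.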

How the data were processed

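Messenger RNA was measured in 10 libraries of 4 groups taken from the labels. The authors aligned paired-end reads to mm10 with STAR. The submitters' processing notes also name FastQC, cutadapt, featureCounts and DESeq2 without versions, and the methods describe in-house counting on protein-coding genes. The deposited values are a signal: the authors scaled each library's gene counts by 1 size factor. The authors' normalisation is said to take account of batches, which no label names. Whole reads were recovered within 0.01 of a read for 100% of values. Of 21638 lines, 26 carried a date in place of a symbol and were left out. Columns of the authors' own comparisons were not used.

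Genes needed a normalised count of 10 or more in 2 libraries, a filter that all 9 genes and 15211 of all genes passed. Nlrc5 reached 10 in only 5 libraries, all of E13.5 or MS-275, the groups where it is high. Differences were tested on log2(normalised count + 1) by limma 3.58.1, its variance trend fitted to mean level, with all 10 libraries in 1 fit and Benjamini-Hochberg adjustment over all genes. Its differences understate changes of rare messages. The thresholds for a call were 0.05 on the adjusted p and 0.2 on the size of the log2 difference. Nlrc5 folds set the mean of the group with reads against 3 reads over the group at 0, and are bounds for that mean only. Samples are called biological replicates in the labels, and n is 2 or 3. Subunit ratios had an exact permutation test. The limma script was tested on simulated data for each of the 4 comparisons. That simulation put changes only into genes of higher level and held no library sets. It does not cover changes of rare messages or the spread between sets. edgeR 4.0.16 (quasi-likelihood, TMM) and DESeq2 1.42.0 were run on the recovered reads in R 4.3.3 as alternatives, beside other pseudocounts, filters, normalisations, weights, a replicate block and leaving out each library.

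The genes, lists and tests were chosen with earlier results of these data known. Named genes were the 9, Psmb10, Psmb5, Psmb6, Psmb7, Irf1, Rfx5 and Ciita in every comparison, and from each list up to 4 genes with the smallest p in a comparison. Others named in counts of 5 or fewer, heavy chains named without a call, and marker and interferon genes given by level, were picked after their values were seen. H2-T10, H2-L, Cd1d2, Irap, Mx1 and Mx2 of the lists are not analysed here. The values of 1 further gene of the rule are not reported here, and it stays in the counts of its lists. Gene positions and lengths are from GENCODE M21.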

Additional observations from a re-analysis of the deposited data

How the results depend on the processing

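Depth limits Psmb8, Psmb9 and Nlrc5 most, with 228, 281 and 414 reads over all libraries. Over all genes, calls between adult control and E13.5 went from 7462 to 12849 with library quality weights, whose estimation stopped before convergence, and calls of the 9 genes from 5 to 8. Quantile normalisation turned the split of 2722 higher and 4740 lower to 4488 and 3571, and moved the median of all genes from -0.20 to 0.12. The causes of these shifts were not tested.

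Between MS-275 and adult control, 4 of the 9 genes were called, 2 at an absolute log2 difference above 1, 1 in a fit of the compared groups alone and 2 after quantile normalisation. Leaving out 1 library in turn gave 1 to 5 of the 9, and 3505 to 6910 over all genes (5955 with all libraries, the lowest without MS-275 2). Between Wnt3a and adult control, leaving out 1 library gave 0 to 579 calls over all genes (579 without adult control 3, 74 without Wnt3a 2), and leaving out both gave 719, with 1 of the 9. Between MS-275 and Wnt3a, 1 of the 9 was called, 2 by DESeq2, 2 with a pseudocount of 10, 4 with the set as a term, 3 without adult control 3 and Wnt3a 2, and 1 to 4 leaving out 1 library (4 without adult control 3). Over all genes 4454 were called, 1002 in a fit of the compared groups alone and 2322 to 5420 leaving out 1 library, the lowest without MS-275 2.

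Directions of log2 differences turned only for values that had not passed the test, except Gbp5. Ciita between adult control and E13.5 passed in its new direction after quantile normalisation (called higher, adjusted p = 0.000427 in limma). Between adult control and E13.5, quantile normalisation gave 0.50 for Tap2, 1.40 for Psmb8, 0.55 for Psmb9, 0.0867 for Psmb10, 0.17 for Rfx5, 2.50 for Ciita and 0.65 for Gbp5. Rfx5 was 0.0392 in edgeR. Psmb6 was 0.0933 in edgeR, 0.16 with quality weights and 0.17 without adult control 3 and Wnt3a 2, with -0.24 to 0.17 leaving out 1 library. Between MS-275 and adult control, Psmb7 was -0.0105 with TMM, -0.0139 in edgeR, -0.0108 with the set as a term and -0.17 to 0.23 leaving out 1 library, and Ciita was -0.99 after quantile normalisation. Leaving out 1 library gave -0.53 to 0.16 for Tap2 and -2.43 to 0.34 for Psmb8. Between Wnt3a and adult control, Psmb9 was -0.25 in DESeq2 and -0.27 in edgeR. Ciita was 0.034 in DESeq2, 0.00495 in edgeR, 0.0504 with quality weights, 0.039 with the set as a term, 0.00878 with a pseudocount of 10 and 0.30 without adult control 3 and Wnt3a 2, where H2-K1 was 0.24. Leaving out 1 library gave -3.13 to 1.86 for H2-K1, -0.67 to 0.15 for H2-D1, -3.87 to 0.62 for Psmb8, -0.54 to 1.71 for Psmb9, -0.70 to 0.15 for Psmb10, -0.95 to 0.0416 for Psmb5, -0.55 to 0.0283 for Psmb6, -0.17 to 0.0996 for Psmb7, -0.47 to 0.20 for Rfx5 and -0.35 to 0.35 for Ciita. Between MS-275 and Wnt3a, Psmb8 was -0.18 in DESeq2, -0.26 in edgeR and -0.45 after quantile normalisation, and Ciita was -0.78 after quantile normalisation. Leaving out 1 library gave -0.20 to 1.05 for Tap1, -1.67 to 2.82 for Psmb8 and -0.14 to 0.26 for Psmb7. The log2 ratio of Psmb8 to Psmb5 differed by 0.0338 between Wnt3a and control with a pseudocount of 10. Leaving out 1 library gave -1.85 to 1.87 (MS-275 against control), -3.91 to 1.57 (Wnt3a against control) and -1.56 to 3.92 (MS-275 against Wnt3a). For Wnt3a against control it gave -0.42 to 2.24 for Psmb9 to Psmb6 and -0.53 to 0.0470 for Psmb10 to Psmb7.

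Replicate numbers did not pair the libraries, since adult control 2 and Wnt3a 2 deviated in opposite ways (r = -0.45). The replicate block gave 4 of the 9 genes between MS-275 and adult control, 6 between adult control and E13.5 (Psmb9 added, adjusted p = 0.0461 in limma), changed no other call of the 9, and turned Psmb7 (-0.0027, MS-275 against control) and Ciita (0.0973, Wnt3a against control). A batch named in the column headings was planned as a term and not run, because the headings give none.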
